A study of Mus musculus with 8 samples.

Results

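Osr1 and 9 further transcription factor genes of limb connective tissue were followed in fibro-adipogenic progenitors (FAPs), the mesenchymal progenitor cells that lie between the fibres of skeletal muscle. The 10 genes, Osr1, Osr2, Prrx1, Meox1, Meox2, Twist1, Twist2, Tcf21, Tcf4 and Tcf7l2, were chosen by gene symbol from the 55276 symbols of the deposited tables, and all 10 were listed there. RNA was sequenced from FAPs sorted from the tibialis anterior muscle of mice 3 or 7 days after a freeze-pierce injury (3 dpi and 7 dpi). Control mice were Osr1flox/+;CAGG-Cre+ and Osr1cKO mice were Osr1flox/flox;CAGG-Cre+, with 2 libraries for each genotype at each day and 8 libraries in all. All mice were 4 to 6 months old and received tamoxifen on the day of injury and on the next 2 days.

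Some properties of the model bear on every value below. The CAGG promoter drives the inducible Cre in all tissues, so recombination was not limited to FAPs. Recombination puts eGFP in place of Osr1, control cells carried 1 such allele, and both genotypes were sorted on the GFP made from it. The compared cells were therefore heterozygous and homozygous for the loss, and all of them were picked for an active Osr1 locus. A library held the cells of 1 mouse at 3 dpi and of 4 pooled mice at 7 dpi, so the day and the pooling cannot be told apart. The study's methods name a pair of sequencing instruments and the labels name 1, so it is not settled which instrument ran which library. Any difference in instrument between the days could not be told apart from the day either.

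Osr1 and Osr2 are zinc finger proteins of the odd-skipped family, and Osr1 marks connective tissue progenitors of the embryonic limb. Prrx1, Meox1 and Meox2 are homeodomain proteins: Prrx1 is a general marker of limb bud mesenchyme, and the Meox genes are known from the somites and, for Meox2, from limb muscle patterning. Twist1, Twist2 and Tcf21 are basic helix-loop-helix (bHLH) proteins that bind DNA as dimers with widely expressed partners called E proteins. Tcf4 is one of these E proteins, also called E2-2. Tcf7l2 is a different kind of protein, an HMG box factor that acts with β-catenin downstream of Wnt signals. In work on muscle, Tcf7l2 is often called TCF4 and marks connective tissue fibroblasts, so the symbols Tcf4 and Tcf7l2 are easily confused.

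Promoter sequence is shown for Prrx1 and Meox2. These genes moved in opposite directions from 3 to 7 dpi, and theirs were the only matched windows that held either motif described below. Whether the motifs bear on these changes was not tested. The windows are the 250 bases before the annotated start, on the strand of the gene, from RefSeq on GRCm38.p6. They cover chr1:163313651-163313900 on the minus strand for Prrx1 and chr12:37108290-37108539 on the plus strand for Meox2. Capitals mark a homeodomain core, TAATTA, in Prrx1 and an E-box, CANNTG, the element that bHLH dimers bind, in Meox2. Both motifs read the same on either strand.
Prrx1: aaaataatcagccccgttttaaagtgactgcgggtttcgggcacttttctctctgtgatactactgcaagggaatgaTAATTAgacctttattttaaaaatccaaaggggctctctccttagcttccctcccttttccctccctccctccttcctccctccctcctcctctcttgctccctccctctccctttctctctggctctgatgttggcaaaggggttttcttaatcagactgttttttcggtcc
Meox2: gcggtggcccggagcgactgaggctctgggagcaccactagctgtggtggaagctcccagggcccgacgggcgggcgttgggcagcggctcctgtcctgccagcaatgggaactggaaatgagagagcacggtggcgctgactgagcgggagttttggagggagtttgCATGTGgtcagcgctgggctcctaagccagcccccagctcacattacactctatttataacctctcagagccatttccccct
The Prrx1 window held 1 TAATTA and no E-box, and the Meox2 window held no TAATTA and 1 E-box, which began 82 bases before the start. Of 32851 promoter windows of the same length, 66.2% held an E-box and 4.84% held TAATTA, and the motifs did not overlap in either gene. GC content was 47.6% for Prrx1 and 62% for Meox2, against a median of 52.4% over all windows. Windows of 6 of the 10 genes were matched by symbol. Those of Twist1, Twist2, Tcf21 and Tcf7l2 held neither motif, and Osr1, Osr2, Meox1 and Tcf4 were not matched. A motif in a window is a description of its letters and says nothing about binding.

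The sorted cells had the markers of FAPs. All 11 FAP markers examined, among them Pdgfra, Ly6a and Dcn, were above 0 in every library. Their summed level was 27241 to 54970 TPM, most of it from the collagen genes Col1a1 and Col3a1. Ly6a, which encodes Sca-1, had 5407 and 4232 TPM in the controls against 3058 and 2020 TPM in Osr1cKO libraries at 3 dpi, a log2 difference of -0.94 (SE, the standard error, 0.34, limma adjusted p = 0.784). It was the only FAP marker lower by more than 1.2-fold at p under 0.05 before adjustment, as were 3.87% of all genes. At 7 dpi 10 of the 11 FAP markers were below 0 after scaling between libraries, with a median log2 difference of -0.15. Pdgfrb alone passed the same rule, as did 5.83% of all genes in that direction. These directions depend on the scaling, since the deposited means of Pdgfra, Cd34, Thy1 and Pi16 were higher in Osr1cKO FAPs. TPM gives each gene its share of all transcripts, corrected for gene length, so the levels of different genes can be set side by side. The 10 haematopoietic markers summed to 15.7 to 31.7 TPM at 3 dpi and 56.1 to 110 TPM at 7 dpi, and Ptprc, which encodes CD45, stood at 0.00834 to 0.216 TPM. The 6 endothelial markers summed to 2.42 to 19.5 TPM at 3 dpi, highest in control replicate 1. At 7 dpi their sum was 7.75 and 9.24 TPM in the controls against 13.2 and 13.9 TPM in Osr1cKO libraries, with all 6 above 0 in log2 difference and 2, Emcn and Cdh5, higher at the unadjusted p, against 5.3% of all genes. The 6 markers of muscle stem cells and fibres summed to 6.76 to 9.10 TPM at 3 dpi, and at 7 dpi to 54.3 and 33.3 TPM in the controls against 31.0 and 30.6 TPM in Osr1cKO libraries. All 6 were then below 0 in log2 difference after scaling, and Acta1 and Ckm were lower at the unadjusted p, as were 5.83% of all genes. The deposited mean of Itga7 was 11.9 TPM in the controls against 12.5 TPM in Osr1cKO libraries. The 7 mural and Schwann cell markers summed to 31.4 to 52.6 TPM at 3 dpi and 50.2 to 108 TPM at 7 dpi, and the genotypes overlapped. The summed level of 5 tenocyte markers, most of it from Thbs4, was higher in Osr1cKO libraries at both days. At 3 dpi it was 578 and 815 TPM in the controls against 1830 and 1599 TPM in Osr1cKO libraries, and at 7 dpi 2391 and 2628 TPM in the controls against 3138 and 3545 TPM in Osr1cKO libraries. All 5 were above 0 in log2 difference at both days. At the unadjusted p 1 was higher at 3 dpi, Thbs4, and 4 were higher at 7 dpi. Of all genes, 2.4% and 5.3% were higher by that rule, and none of the 5 passed at the adjusted p. The part of these other cell types in the results below was not tested, and in bulk RNA fewer cells of a type and less RNA per cell cannot be told apart. Recovered depth was 36516515 to 51096348 fragments per library, higher in every 3 dpi library than in any 7 dpi library.

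In control FAPs at 3 dpi, the highest of the 10 genes were Twist1 at 134 ± 0.764 TPM and Prrx1 at 132 ± 4.11 TPM (mean ± SD, n = 2), and their libraries overlapped. Osr1 followed at 98.0 ± 9.90 TPM. Meox2 at 79.8 ± 9.97, Meox1 at 73.4 ± 50.03 and Osr2 at 55.6 ± 8.36 TPM came next, and neighbours in this order overlapped. Twist2, Tcf4 and Tcf7l2 stood at 17.6 ± 8.83, 16.0 ± 1.59 and 14.1 ± 1.5005 TPM, again with overlap between neighbours. At 7 dpi the order in control FAPs was another one: Meox2 led at 143 ± 5.88 TPM, and Twist1 at 123 ± 5.11 and Osr2 at 114 ± 11.9 TPM overlapped behind it. Prrx1 at 86.4 ± 1.52 TPM was apart from its neighbours, and Meox1 at 70.9 ± 10.2 and Osr1 at 69.6 ± 2.86 TPM overlapped. Tcf4 at 32.2 ± 1.72, Tcf7l2 at 22.9 ± 1.94 and Twist2 at 10.2 ± 0.565 TPM were each apart from the next.

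Tcf21, a bHLH gene best known from visceral and epicardial mesenchyme, was barely present. It had 5 and 0 recovered fragments in the control libraries and 0 and 4 in the Osr1cKO libraries at 3 dpi, and 2, 2, 1 and 3 fragments in the libraries of 7 dpi. Its highest level was 0.171 TPM. A count of 0 allows a level of up to 0.1004 TPM in the control library and 0.101 TPM in the Osr1cKO library concerned, with 3 fragments as the limit and for counting error only. Tcf21 (chromosome 10, 22817281 to 22820174) did not reach the minimum of 10 fragments in 2 libraries, so 9 of the 10 genes passed the filter on low values and were tested. The fewest fragments of any of these 9 in a library were the 335 of Twist2, and the most were the 18658 of Prrx1.

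**Figure D1:**
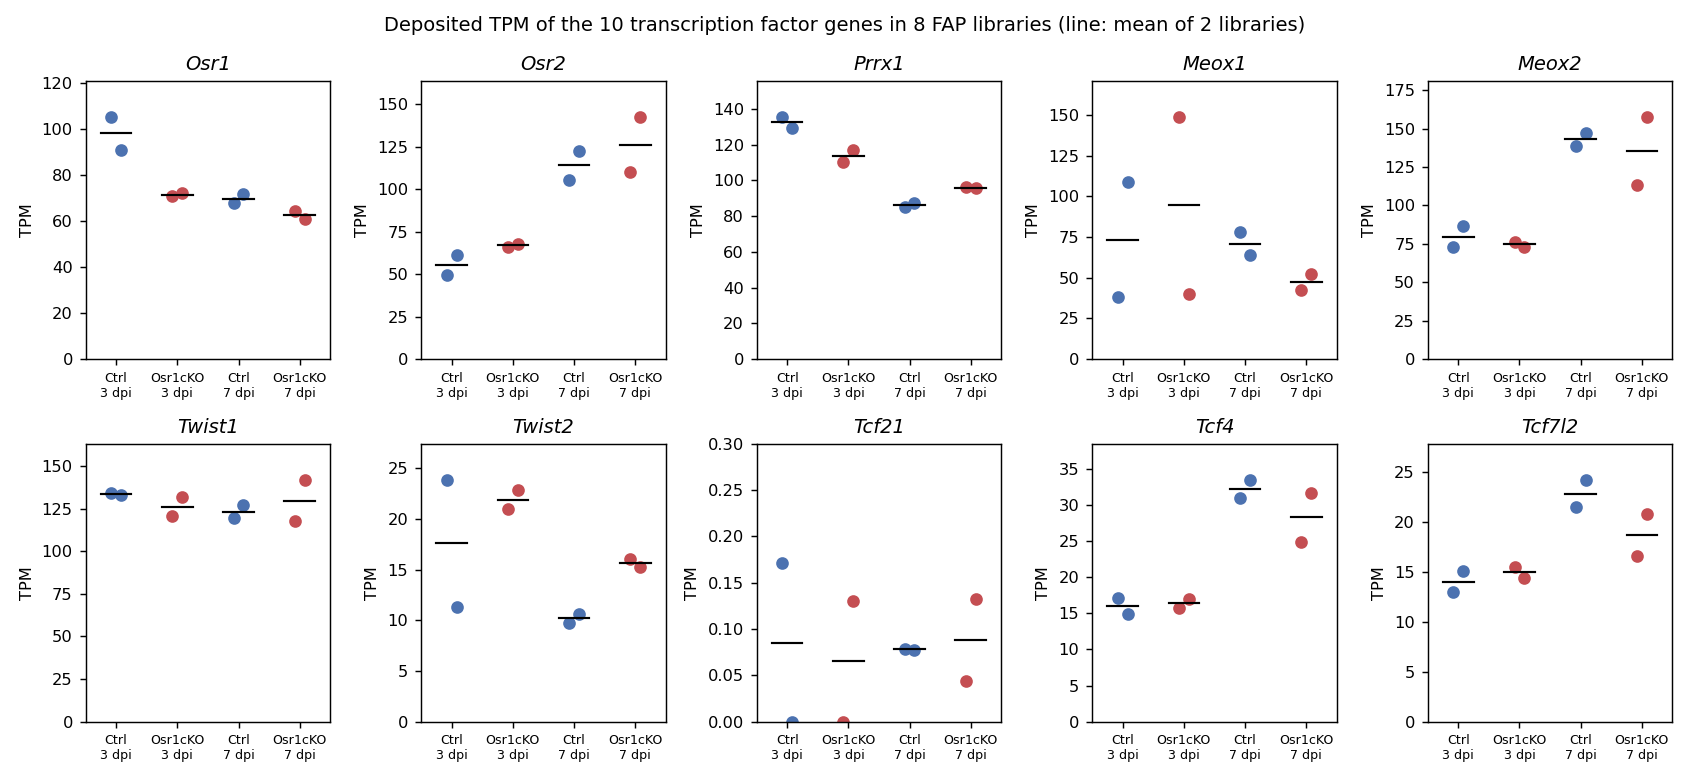
Deposited TPM (vertical axis, linear, from 0, scaled per gene) of the 10 genes in the 8 libraries, with control libraries in blue, Osr1cKO libraries in red and a line at the mean of 2 libraries. Osr1 is highest in control FAPs at 3 dpi, at 105 and 91.0 TPM, and lowest in Osr1cKO FAPs at 7 dpi, at 64.4 and 60.8 TPM, Osr2 is above 100 TPM in all libraries of 7 dpi only, and Tcf21 stays at or under 0.171 TPM.

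The targeted gene was examined first. Osr1 (ENSMUSG00000048387.8) spans chromosome 12, 9570116 to 9581500, plus strand, in mm10, the build of all positions given here. Control libraries held 105 and 91.0 TPM of Osr1 at 3 dpi and Osr1cKO libraries 70.7 and 71.9 TPM. At 7 dpi it stood at 67.6 and 71.6 TPM in the controls and at 64.4 and 60.8 TPM in Osr1cKO FAPs. Both Osr1cKO libraries were below both control libraries at each day, and the control libraries of 7 dpi overlapped the Osr1cKO libraries of 3 dpi. The deposited value is 1 per gene and takes in all exons. Exon 2, the floxed one, spans 9579095 to 9579793 and makes up 33.8% of the 2066 bp of annotated exon sequence, exon 3 makes up 48.9% and exon 1 14.6%. The coverage of each exon was not used here, so these levels are not levels of intact Osr1 mRNA. The study reports, from its own exon coverage, that the floxed exon was efficiently deleted and that the next exon lacked expression. By RT-qPCR the study also reports an efficient decrease of Osr1 mRNA in FAPs of Osr1cKO mice at the earlier day. The floxed exon and the next one make up most of the annotated exon sequence. Yet the fitted whole-gene level of Osr1 was only 1.36-fold lower in Osr1cKO at 3 dpi and 1.21-fold lower at 7 dpi. The reason for this gap to the reported exon coverage was not tested. The whole-gene TPM given here is thus not taken as a measure of how far Osr1 was inactivated.

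The first comparison asked which of these regulators differed between genotypes at 3 dpi. A gene was called when it differed more than 1.2-fold with p below 0.05 before adjustment, the threshold of the study's methods for this day, and 6.27% of the 15699 genes tested passed it, 3.87% lower and 2.4% higher in Osr1cKO. Of the 9 genes of the set that were tested, 1 passed, Osr1 itself, with a log2 difference of -0.45 (SE 0.13, limma adjusted p = 0.774). The call was lost without either Osr1cKO library, at log2 differences of -0.46 and -0.43. This single call is near the share of all genes. No gene in the table had a Benjamini-Hochberg adjusted p below 0.1, and the smallest adjusted p was 0.336.

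Osr2, the paralog of Osr1 (chromosome 15, 35296098 to 35303305), went the other way on the means. It stood at 49.7 and 61.5 TPM in the controls against 66.0 and 67.7 TPM in Osr1cKO libraries, so the groups did not overlap. The log2 difference of 0.27 (SE 0.15, limma adjusted p = 0.831) did not pass. Over the fits that leave out 1 library it ranged from 0.11 to 0.42, and it passed only without control replicate 2, where 18.3% of all genes passed.

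Prrx1 (chromosome 1, 163245119 to 163313710) stood at 135 and 130 TPM in the controls against 110 and 117 TPM in Osr1cKO libraries. These groups did not overlap, and the log2 difference was -0.22 (SE 0.11, limma adjusted p = 0.831), which did not pass. Twist1 (chromosome 12, 33957671 to 33959829) had 134 and 133 TPM against 121 and 132 TPM, a log2 difference of -0.08 (SE 0.12). On deposited TPM, Osr1cKO libraries were thus above both controls for 1 of the 10 genes, Osr2, and below both for 3, Osr1, Prrx1 and Twist1, and 6 genes overlapped. Over all genes tested, the libraries did not overlap for 36.2%, 18.2% higher and 18% lower, so the 4 of 10 are close to the background.

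Meox1 and Twist2 varied between replicates at 3 dpi. Meox1 (chromosome 11, 101877510 to 101894374) had 38.0 and 109 TPM in the control libraries and 149 and 40.2 TPM in the Osr1cKO libraries. Each genotype thus held 1 high and 1 low library, 2.86-fold apart in control, where 1.65% of genes spread more widely, and 3.69-fold apart in Osr1cKO, where 0.487% did. The median gene differed 1.17-fold and 1.11-fold between the same replicates. The log2 difference of Meox1 between genotypes was 0.27 with a standard error of 0.78. Twist2 (chromosome 1, 91801461 to 91848028) had 23.9 and 11.4 TPM in the controls, 2.10-fold apart, and 20.99 and 22.8 TPM in Osr1cKO libraries. Its log2 difference was 0.39 (SE 0.34), and its direction rested on single libraries. Without control replicate 1 it was 0.88 and passed the unadjusted threshold, as did 6.08% of all genes, and without control replicate 2 it turned to -0.12. An exon of Twist2 overlaps Gm29100 on the opposite strand, and no source states whether strand was used in counting, so the level of Twist2 is uncertain.

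Meox2 (chromosome 12, 37108540 to 37179534) had 72.7 and 86.8 TPM in the controls against 76.3 and 73.1 TPM in Osr1cKO libraries, a log2 difference of -0.09 (SE 0.15). Tcf4 (chromosome 18, 69343356 to 69689079) had 17.1 and 14.9 against 15.7 and 17.0 TPM, and Tcf7l2 (chromosome 19, 55741820 to 55933654) 12.99 and 15.1 against 15.6 and 14.4 TPM. Their log2 differences were 0.04 (SE 0.16) and 0.09 (SE 0.17). The genotypes overlapped for all 3 genes at this day, which does not show that they were alike.

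**Figure D2:**
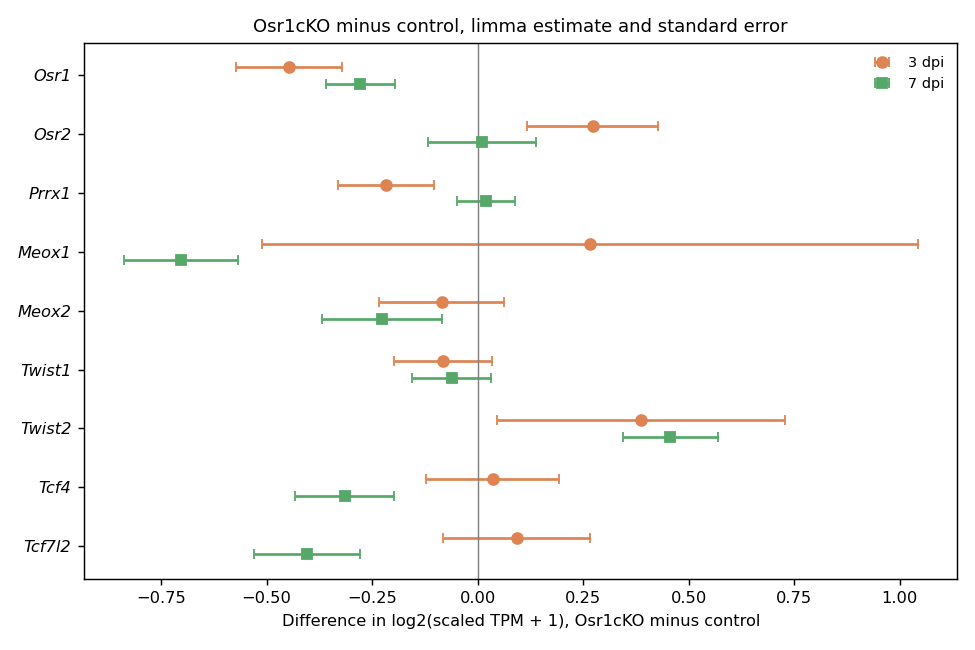
Log2 difference between Osr1cKO and control FAPs (horizontal axis, on the scale of log2(scaled TPM + 1)) for the 9 genes tested, with bars of 1 standard error, at 3 dpi (circles) and 7 dpi (squares). Osr1 is left of 0 at both days, at -0.45 and -0.28, Meox1 has a standard error of 0.78 at 3 dpi and 0.13 at 7 dpi, and Twist2 is right of 0 at both days.

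At 7 dpi the call needed a Benjamini-Hochberg adjusted p under 0.1, and 0.0664% of the 16578 genes passed it, 11 genes. None of the 9 genes of the set did in limma. Under the looser rule used at 3 dpi, 5 of the 9 passed, 4 lower and 1 higher in Osr1cKO, where 11.1% of all genes passed, 5.83% lower and 5.3% higher. The median log2 difference of the 9 genes was -0.23, against 0.01 over all genes tested, and 6 of the 9 were below 0. These 5 do not hold at the threshold set for this day, and none of the 9 had an adjusted p below the 0.232 of Meox1.

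Meox1 was the lowest of the set in Osr1cKO relative to control at 7 dpi. It had 78.1 and 63.7 TPM in the controls against 42.5 and 52.0 TPM in Osr1cKO libraries, and the genotypes did not overlap. The log2 difference was -0.70 (SE 0.13, limma adjusted p = 0.232), and 2.29% of genes differed more. limma-voom on recovered fragments called Meox1, as did limma without either control library, and the other settings with the threshold of adjusted p did not, apart from a block on crossed replicate numbers, which was added after the data were seen. Meox2, its paralog, had 139 and 147 TPM against 113 and 157 TPM, with overlap and a log2 difference of -0.23 (SE 0.14, limma adjusted p = 0.556).

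Twist2 had 9.79 and 10.6 TPM in the controls against 16.1 and 15.3 TPM in Osr1cKO libraries at 7 dpi. It was higher in both Osr1cKO libraries, with a log2 difference of 0.46 (SE 0.11, limma adjusted p = 0.287). Twist1 had 120 and 127 TPM against 118 and 142 TPM, with overlap and a log2 difference of -0.06 (SE 0.09). The paralogs thus differed in their values, and that difference was not tested at this day.

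Tcf7l2 had 21.5 and 24.2 TPM in the controls against 16.6 and 20.9 TPM in Osr1cKO libraries, which did not overlap, and a log2 difference of -0.40 (SE 0.13, limma adjusted p = 0.329). Tcf4 had 31.0 and 33.4 TPM against 24.9 and 31.7 TPM, which overlapped, and a log2 difference of -0.32 (SE 0.12, limma adjusted p = 0.375). The log2 difference of Osr1 at 7 dpi was -0.28 (SE 0.08, limma adjusted p = 0.317). These unadjusted passes depend on the scaling between libraries. On the deposited TPM with no further scaling, the median log2 difference of all genes was 0.11 in place of 0.01, and of the 5 genes only Twist2 and Meox1 passed the unadjusted threshold.

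Osr2 at 7 dpi had 106 and 122 TPM in the controls against 110 and 142 TPM in Osr1cKO libraries, and a log2 difference of 0.01 (SE 0.13). Prrx1 had 85.4 and 87.5 TPM against 96.1 and 95.7 TPM in the deposited values, which did not overlap, and 89.7 and 90.6 against 92.9 and 89.0 TPM after scaling, which did. The log2 difference of Prrx1 on scaled values was 0.02 (SE 0.07). On deposited TPM, 2 of the 10 genes, Prrx1 and Twist2, were above both controls in both Osr1cKO libraries and 3, Osr1, Meox1 and Tcf7l2, were below, and 5 overlapped. All genes tested failed to overlap in 53.5% of cases at this day, 42.8% higher and 10.7% lower.

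The set was next compared between days within each genotype, under the rule of 7 dpi. In control FAPs, 6 of the 9 genes tested were called from 3 to 7 dpi, 4 higher and 2 lower, and 50% of the 16525 genes tested were called, 22.7% higher and 27.3% lower. In Osr1cKO FAPs, 5 of the 9 were called, 3 higher and 2 lower, against 56.6% of 16279 genes, 27.2% higher and 29.4% lower. The share in Osr1cKO FAPs is near that of all genes. In control FAPs the share was above that of all genes, through the 4 higher genes, and whether it differs was not tested. The counts rest on few libraries: without control replicate 1 of 7 dpi 1 gene, Osr2, was called in control FAPs, and without replicate 2 of 7 dpi none was, of the set or of all genes, while Osr2, Meox2 and Tcf4 still passed at the unadjusted p.

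Osr2 rose in both genotypes. In control FAPs it went from 49.7 and 61.5 TPM to 106 and 122 TPM, a log2 difference of 1.08 (SE 0.16, limma adjusted p = 0.00883), and in Osr1cKO FAPs from 66.0 and 67.7 TPM to 110 and 142 TPM, a log2 difference of 0.83 (SE 0.12, limma adjusted p = 0.00512). Every library of 7 dpi was above every library of 3 dpi. Osr1 fell in control FAPs, with a log2 difference of -0.43 (SE 0.11, limma adjusted p = 0.0383). In Osr1cKO FAPs its log2 difference of -0.25 (SE 0.09, limma adjusted p = 0.0791) was a 1.19-fold change, under the 1.2-fold limit, so it was not called. It was called with no filter on low values, in 1 fit of all 8 libraries and without either Osr1cKO library of 3 dpi, and in control FAPs the call was lost without either library of 7 dpi. The genotypes are therefore not shown to differ in this fall.

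Meox2 rose from 72.7 and 86.8 to 139 and 147 TPM in control FAPs, a log2 difference of 0.90 (SE 0.13, limma adjusted p = 0.00963). In Osr1cKO FAPs it rose from 76.3 and 73.1 to 113 and 157 TPM, a log2 difference of 0.77 (SE 0.15, limma adjusted p = 0.0122). Tcf4, one of the E proteins, rose in control FAPs from 17.1 and 14.9 to 31.0 and 33.4 TPM, a log2 difference of 1.02 (SE 0.13, limma adjusted p = 0.00669). In Osr1cKO FAPs it rose from 15.7 and 17.0 to 24.9 and 31.7 TPM, a log2 difference of 0.69 (SE 0.13, limma adjusted p = 0.0115). Tcf7l2 rose in control FAPs, from 12.99 and 15.1 to 21.5 and 24.2 TPM, with a log2 difference of 0.72 (SE 0.15, limma adjusted p = 0.0217). In Osr1cKO FAPs its log2 difference was 0.24 (SE 0.14, limma adjusted p = 0.214), which did not pass.

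Prrx1 fell from 135 and 130 to 85.4 and 87.5 TPM in control FAPs, a log2 difference of -0.55 (SE 0.10, limma adjusted p = 0.0138). In Osr1cKO FAPs it fell from 110 and 117 to 96.1 and 95.7 TPM, a log2 difference of -0.30 (SE 0.08, limma adjusted p = 0.0338). That second call was lost on deposited TPM with no further scaling, with a filter at a mean TPM of 1, and without either Osr1cKO library of 7 dpi. Twist2 fell in Osr1cKO FAPs from 20.99 and 22.8 to 16.1 and 15.3 TPM, a log2 difference of -0.52 (SE 0.11, limma adjusted p = 0.0177), lost in 1 fit of all 8 libraries and without replicate 2 of 7 dpi. In control FAPs its log2 difference was -0.60 (SE 0.34, limma adjusted p = 0.222). Twist1 had log2 differences of -0.06 (SE 0.10) in control and -0.03 (SE 0.11) in Osr1cKO FAPs, and over the 8 libraries it ranged only from 118 to 142 TPM. Meox1, with its wide spread at 3 dpi, had log2 differences of 0.19 (SE 0.51) and -0.77 (SE 0.59), and neither passed. In control FAPs it was called lower, at -0.58, without replicate 1 of 3 dpi and called higher, at 0.99, without replicate 2 of 3 dpi.

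**Figure D3:**
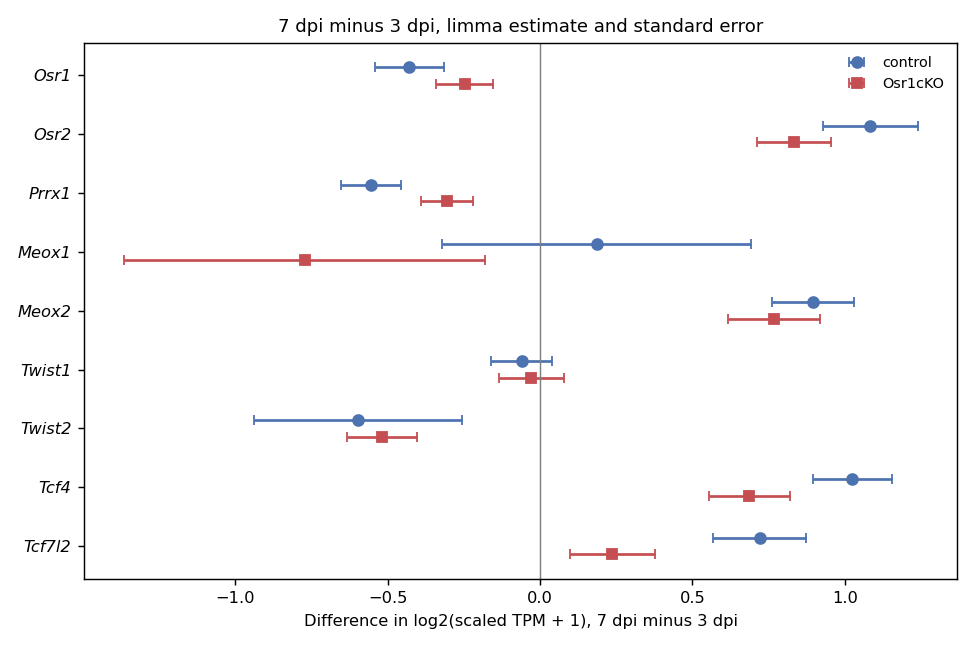
Log2 difference between 7 and 3 dpi (horizontal axis, on the scale of log2(scaled TPM + 1)) for the 9 genes tested, with bars of 1 standard error, in control (circles) and Osr1cKO FAPs (squares). Osr2, Meox2 and Tcf4 are right of 0 in both genotypes, Prrx1 and Osr1 are left of 0 in both, and Twist1 lies within 1 standard error of 0 in both.

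Whether the genotype effect itself changed between the days was tested as an interaction over all 8 libraries. Under the rule of 7 dpi, limma called 0 of the 17371 genes, with 0.141 as the smallest adjusted p. Under the looser rule of 3 dpi, 6.95% of all genes passed and 1 of the 9 genes of the set did, Tcf7l2, with -0.54 (SE 0.22, limma adjusted p = 0.716). limma-voom also called 0 genes at the adjusted p. Tcf4 gave -0.40 (SE 0.18, limma adjusted p = 0.744), Osr1 0.12 (SE 0.13, limma adjusted p = 0.936) and Prrx1 0.19 (SE 0.12, limma adjusted p = 0.839). A smaller rise of Tcf7l2 in Osr1cKO than in control FAPs is therefore not shown at the adjusted threshold.

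Ratios of paralogs within a library do not depend on the scaling between libraries, and 3 pairs were compared between days with an exact two-sided permutation test over 4 against 4 libraries. The ratio of Osr1 to Osr2 TPM at 3 dpi was 2.11 and 1.48 in control and 1.07 and 1.06 in Osr1cKO libraries. At 7 dpi it was 0.640 and 0.585 in control and 0.584 and 0.427 in Osr1cKO libraries. Osr1 was thus the higher paralog in all libraries of 3 dpi and Osr2 in all libraries of 7 dpi. The log2 ratio differed by -1.31 between the days, or 2.48-fold (exact p = 0.0286, the smallest that 4 against 4 libraries allow, and 0.0857 after Benjamini-Hochberg adjustment over the 3 pairs). Within control FAPs the difference was -1.53 and within Osr1cKO FAPs -1.09. At 3 dpi both Osr1cKO libraries also had a lower ratio than both control libraries, and at 7 dpi 0.585 in control and 0.584 in Osr1cKO were side by side. Osr1 TPM counts the whole gene, as above.

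The ratio of Meox1 to Meox2 at 3 dpi was 0.522 and 1.25 in control and 1.95 and 0.550 in Osr1cKO libraries, and at 7 dpi 0.562 and 0.433 against 0.374 and 0.330. The log2 ratio differed by -1.14 at 7 dpi on the mean, and the days overlapped (exact permutation p = 0.0857, adjusted p = 0.0857). The ratio of Twist1 to Twist2 was 5.62 and 11.7 in control and 5.74 and 5.77 in Osr1cKO libraries at 3 dpi, and 12.2 and 12.0 against 7.32 and 9.26 at 7 dpi. The log2 ratio was higher by 0.55 at 7 dpi on the mean, with overlap (exact permutation p = 0.0857, adjusted p = 0.0857). Twist1 was the higher paralog in every library.

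**Figure D4:**
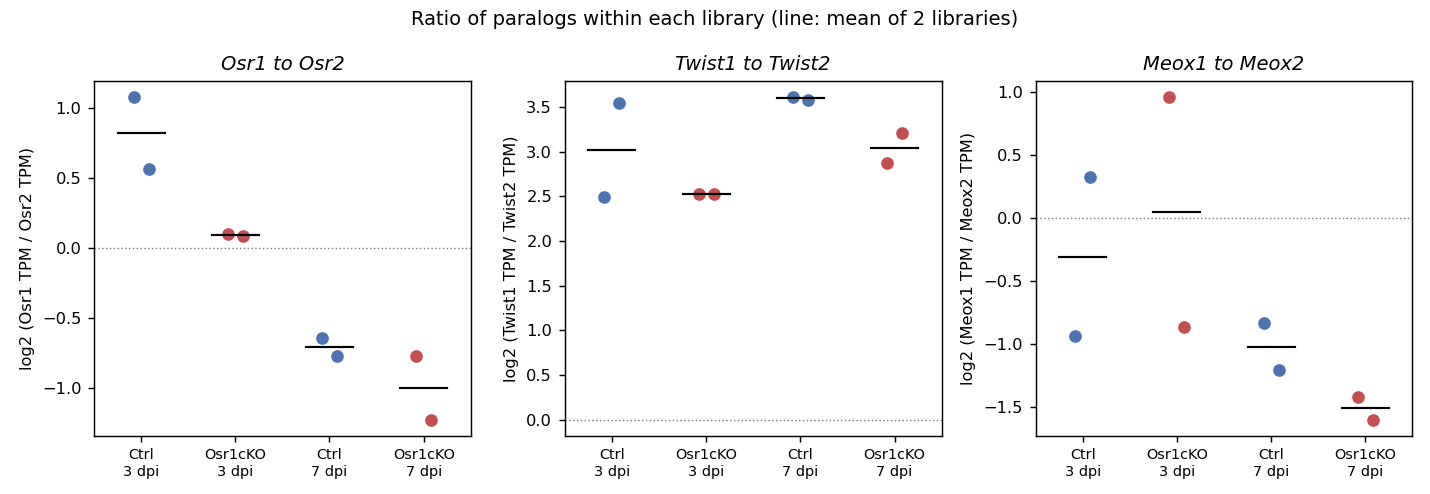
Log2 ratio of TPM within each library (vertical axes, linear in log2, a dotted line at a ratio of 1) for Osr1 to Osr2, Twist1 to Twist2 and Meox1 to Meox2, with control libraries in blue, Osr1cKO libraries in red and a line at the mean of 2 libraries. The Osr1 to Osr2 ratio is above 1 in the 4 libraries of 3 dpi and below 1 in the 4 libraries of 7 dpi, and Twist1 exceeds Twist2 in all 8.

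Relatives of these genes were read beside them. Prrx2, the paralog of Prrx1, stood at 62.2 to 66.0 TPM in the controls against 63.7 to 69.3 TPM in Osr1cKO libraries at 3 dpi, and at 85.9 to 90.2 and 81.1 to 101 TPM at 7 dpi. Where Prrx1 fell, Prrx2 rose with the day, by 0.51 on the log2 scale in control FAPs (SE 0.10, limma adjusted p = 0.0197) and by 0.38 in Osr1cKO FAPs (SE 0.12, limma adjusted p = 0.0519). Tcf3, a second E protein, fell where Tcf4 rose, from 82.1 and 95.2 to 54.1 and 51.8 TPM in control FAPs (log2 difference -0.67, SE 0.13, limma adjusted p = 0.0168) and in Osr1cKO FAPs (log2 difference -0.68, SE 0.10, limma adjusted p = 0.00467). Tcf12, the remaining E protein, stood at 29.9 to 39.0 TPM over all libraries and was not called.

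Among the bHLH relatives, Msc, which encodes the repressor musculin, rose from 4.69 and 5.83 to 24.8 and 35.6 TPM in control FAPs (log2 difference 2.35, SE 0.23, limma adjusted p = 0.00467) and rose in Osr1cKO FAPs by 1.45 on the log2 scale (SE 0.32, limma adjusted p = 0.0171). At 7 dpi Msc had 17.9 and 18.9 TPM in Osr1cKO libraries, below both controls, a log2 difference of -0.79 (SE 0.18, limma adjusted p = 0.274) that passed at the unadjusted p only. Hand2 was low, at 0.546 to 5.09 TPM, and rose with the day in both genotypes, and Tcf15 stood at 1.93 to 5.16 TPM with no call. The Wnt effectors related to Tcf7l2 were not called in any comparison: Tcf7l1 stood at 37.7 to 54.2 TPM and Tcf7 at 0.724 to 2.005 TPM. Of the 11 relatives listed, none of 10 tested was called at 3 dpi and none of 9 at 7 dpi, 1 of these at the unadjusted p. With the day, 3 of 9 rose and 1 fell in control FAPs, where 22.7% of all genes rose and 27.3% fell. In Osr1cKO FAPs 3 of 8 rose and 1 fell, where 27.2% of all genes rose and 29.4% fell. The medians of these relatives were 0.03, -0.12, 0.05 and -0.05 in the 4 comparisons, against 0.01, 0.01, -0.01 and 0.00 over all genes.

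The Id proteins hold bHLH dimers in check by binding E proteins without binding DNA. At 3 dpi 2 of the 4 Id genes were lower in Osr1cKO at the unadjusted threshold, and all 4 were below 0, with a median log2 difference of -0.45, against 3.87% of all genes lower at that threshold. This count was 0 without control replicate 1, without either Osr1cKO library and at an adjusted p under 0.1. Id1 had 262 and 190 TPM in the controls against 152 and 151 TPM in Osr1cKO libraries, a log2 difference of -0.55 (SE 0.18, limma adjusted p = 0.774). Id2 had 39.5 and 30.5 TPM against 24.1 and 24.3 TPM, a log2 difference of -0.50 (SE 0.17, limma adjusted p = 0.774). Id3 stood at 364 and 519 TPM in the controls against 326 and 327 TPM in Osr1cKO libraries, and Id4 at 11.4 and 22.1 TPM against 9.30 and 16.4 TPM, and neither passed. At 7 dpi none of the 4 passed. Between the days Id1 fell and Id2 rose in both genotypes, with log2 differences of -1.87 and 0.89 in control FAPs (adjusted p = 0.00739 and 0.0155 from limma) and of -1.16 and 1.27 in Osr1cKO FAPs (adjusted p = 0.00135 and 0.00170 from limma).

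Further regulators of limb and connective tissue were counted by list. None of the 27 other limb mesenchyme factors tested, of 33 listed, was called at 3 dpi, nor were the 4 mesenchymal transition factors or the 33 tested of 36 connective tissue lineage factors. At 7 dpi none of the 28, 4 and 32 tested was called, and at the unadjusted p 1 limb factor was higher and 5 were lower, 1 transition factor was lower, and 5 lineage factors were higher and 4 lower. Of all genes, 5.3% were higher and 5.83% lower by that rule. The limb factors of smallest p were Msx1, at 27.6 and 29.6 TPM in the controls against 20.8 to 25.6 TPM in Osr1cKO libraries, and Gli2 and Tbx2, and the transition factor was Snai2, at 48.0 to 51.2 against 30.6 to 45.5 TPM. The lineage factors of smallest p were Six2, at 0.898 to 1.71 TPM in the controls against 3.04 to 3.19 TPM in Osr1cKO libraries, Runx2, the bone factor, at 29.1 to 30.5 against 26.4 to 26.8 TPM, and Pparg, the fat factor, at 3.10 to 3.33 against 1.94 to 2.36 TPM. These genes were named after their values were seen. The median log2 differences of the limb, transition and lineage lists were -0.04, -0.26 and -0.02 at 3 dpi and -0.04, -0.20 and -0.07 at 7 dpi, against 0.01 over all genes at both days.

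With the day, 6 limb factors rose and 2 fell of 27 in control FAPs, and 7 rose and 3 fell of 27 in Osr1cKO FAPs. Of all genes, 22.7% rose and 27.3% fell in control FAPs and 27.2% rose and 29.4% fell in Osr1cKO FAPs. Gli2 and Gli1, effectors of hedgehog signalling, rose in control FAPs by 1.65 and 1.97 on the log2 scale (adjusted p = 0.00578 and 0.00713 from limma). Their mean levels were also higher at 7 dpi in Osr1cKO FAPs, from 5.50 to 9.84 TPM for Gli2 and from 3.57 to 9.92 TPM for Gli1. Shox2 rose by 1.001 in control and 0.96 in Osr1cKO FAPs (adjusted p = 0.00940 and 0.00215 from limma). Of the transition factors, 3 of 4 rose and 1 fell in control FAPs, and 2 rose and 1 fell in Osr1cKO FAPs. Snai1 was the one that fell, from 349 and 520 to 143 and 164 TPM in control FAPs, and Zeb1 and Zeb2 rose in both genotypes. Of the lineage factors, 10 rose and 4 fell of 33 in control FAPs and 14 rose and 3 fell of 34 in Osr1cKO FAPs, to be read against the same shares of all genes. Klf2 rose in both genotypes and Foxf2 fell in both, as did Lhx2 of the limb list, with log2 differences of -1.29 in control and -1.07 in Osr1cKO FAPs. Sox11 and Sall1 rose in Osr1cKO FAPs, by 1.38 and 0.91, and were not called in control FAPs, at 0.82 and 0.34. No limb, transition or lineage factor was called for the interaction at the adjusted p, so a difference between genotypes in these changes is not shown. The tendon factor Scx rose in control FAPs from 0.720 and 2.35 to 8.55 and 7.27 TPM and in Osr1cKO FAPs from 5.83 and 2.89 to 12.9 and 26.3 TPM. At 7 dpi Scx was one of the 5 lineage factors higher in Osr1cKO at the unadjusted p, with a log2 difference of 1.01 (SE 0.30, limma adjusted p = 0.321). Like Mkx of the same list, it is also among the 5 tenocyte markers above. The medians of the 3 lists were 0.17, 0.73 and 0.23 in control FAPs and 0.06, 0.58 and 0.32 in Osr1cKO FAPs, against -0.01 and 0.00 over all genes. As for Twist2, the levels of Msc, Hand2, Id4, Tcf7l1, Shox2, Gli1, Zeb1, Zeb2, Foxf2 and Runx2 are uncertain, since they overlap exons of genes on the opposite strand.

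The 5 genes whose levels followed Osr1 most closely were found over the 8 libraries among 8425 genes with a mean of at least 10 TPM. They were Rbpms, an RNA-binding protein gene, with Pearson's r = 0.962, Rps7, a ribosomal protein gene, with r = 0.960, Fbxo6 with r = 0.959, AU020206 with r = 0.956 and Ccl7, a monocyte chemokine gene, with r = 0.952. Rbpms had 24.1 and 23.4 TPM in the controls against 15.5 and 17.1 TPM in Osr1cKO libraries at 3 dpi, and 12.1 to 14.04 TPM at 7 dpi. Ccl7 had 2274 and 1940 TPM against 1425 and 1427 TPM at 3 dpi, and 1111 to 1488 TPM at 7 dpi. These genes share with Osr1 the high level in the controls of 3 dpi. The 8 points share 4 groups, pooling within a day and the same libraries, so the coefficients are a description, and none of the other genes of the set was among the 5.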

How the data were processed

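The authors aligned paired-end reads of stranded libraries to mm10 with STAR and deposited TPM per gene symbol, computed after DESeq2 normalization of fragment counts. The counting program, its annotation and its use of strand are not given in the sources used here. Of 55385 entries per table, 109 further entries of 106 repeated symbols were left out. With exon lengths from GENCODE M21 (GRCm38, the assembly of mm10), 98.7% to 98.9% of the low values, those below 50 fragments, lay no further than 0.02 from a whole fragment, which gave the depth of each library. TPM itself keeps no depth, and genes with few fragments carry the most counting error.

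Libraries were scaled to each other with a trimmed mean of log ratios (trim of 30%), and log2(scaled TPM + 1) was fitted with limma (lmFit, eBayes with a trend), which understates changes of low genes. Genes needed 10 fragments in 2 libraries and 15 in all, or a mean TPM of 1 where no length was known. p-values were adjusted by Benjamini-Hochberg over all genes tested. The procedure was run on simulated counts with known changes, under the adjusted threshold only. Every simulated gene had the same dispersion, so the run does not test the unadjusted rule of 3 dpi or genes that vary widely between replicates. Calls at 3 dpi used the unadjusted p under 0.05 of the study's methods, and all others an adjusted p under 0.1, each with a fold change over 1.2. The tools were limma 3.58.1 in R 4.3.3, and SciPy 1.17.1, NumPy 2.4.6, pandas 2.3.3 and matplotlib 3.10.9 in Python 3.11.15.

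The 10 genes, the lists and the tests were chosen with earlier results of these data known. Named beside the 10 genes were relatives and Id genes with a mean TPM of at least 1, up to 3 called genes of smallest p per other list and comparison, and the 5 genes of highest correlation with Osr1 on scaled log2 values. Alternatives were other scalings, filters, pseudocounts and thresholds, limma-voom on recovered fragments, robust eBayes, 1 fit of all 8 libraries, a replicate block and leaving out each library. Reads and sex of the mice were not used here.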

Additional observations from a re-analysis of the deposited data

Results flagged for a closer look

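The genotype effect on Prrx1 had opposite signs at the 2 days in the deposited TPM. At 3 dpi both Osr1cKO libraries, with 110 and 117 TPM, were below both controls, with 135 and 130 TPM, and at 7 dpi both, with 96.1 and 95.7 TPM, were above both controls, with 85.4 and 87.5 TPM. The interaction on scaled values was 0.19 (standard error 0.12, adjusted p = 0.839 from limma), so the difference between the days did not pass. On the deposited TPM with no further scaling it was 0.37 and passed at the unadjusted p. On scaled TPM the genotypes overlapped at 7 dpi, with a log2 difference of 0.02 (standard error 0.07). Of all genes tested, 18% had both Osr1cKO libraries below both controls at 3 dpi in deposited TPM. At 7 dpi 42.8% had both above, and the share of genes that met both conditions was not computed. Groups held 2 libraries each, so no single library could be tested against its own group.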

How the results depend on the processing

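Counts of called genes depended on single libraries and on the threshold. Of the 9 genes tested, the count at 3 dpi ranged from 0 to 2 over the fits that leave out 1 library (0 without either Osr1cKO library) and was 0 at an adjusted p under 0.1. At 7 dpi it ranged from 0 to 1 over those fits, and was 1 with limma-voom, 1 with crossed replicate numbers (an alternative chosen after seeing the data) and 5 at an unadjusted p under 0.05. For the days it ranged from 0 to 8 in control and from 3 to 7 in Osr1cKO FAPs, and for the interaction it was 1 at an unadjusted p under 0.05. In these fits the lone library is assumed to vary like the others. Libraries of the same replicate number were not treated as pairs. Their deviations from the group means correlated by -0.14 at 3 dpi and 0.23 at 7 dpi, and -0.22 and -0.12 between the days in control and Osr1cKO FAPs. Such correlations rest on a single difference per group, so they cannot exclude pairing of the libraries. With the replicate block the counts were 1, 0, 6, 5 and 0, as without it. The paralog ratios kept their direction under every alternative. The permutation test was repeated with 1 added to each TPM and on recovered fragments, and no ratio crossed an adjusted p of 0.05, the limit used for these ratios. With the replicate block and the fits that leave out 1 library no p was computed. There the difference between the days moved by less than the larger SD of the days.

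Of 684 values of single genes under alternatives, 621 kept direction and side of the threshold, 19 lost and 13 gained a call, and 31 reversed. No reversed value was a call as reported, and Meox1 between the days in control FAPs became one in reverse, at -0.58, without replicate 1 of 3 dpi. Over the fits that leave out 1 library, the reversed log2 differences at 3 dpi ranged from -0.69 to 1.22 for Meox1, -0.022 to 0.19 for Tcf7l2, -0.12 to 0.88 for Twist2, -0.23 to 0.038 for Meox2 and -0.062 to 0.12 for Tcf4, and at 7 dpi from -0.15 to 0.16 for Osr2, -0.021 to 0.048 for Prrx1 and -0.17 to 0.035 for Twist1. Between the days they ranged from -0.58 to 0.99 for Meox1 and -0.074 to 0.020 for Twist1 in control, and from -1.74 to 0.15 and -0.096 to 0.13 in Osr1cKO FAPs, and for the interaction from -0.13 to 0.083 for Twist1, -0.44 to 0.49 for Twist2 and -0.39 to 0.023 for Meox2. Twist1 also reversed on unscaled TPM, to 0.067 at 7 dpi, 0.035 between the days in Osr1cKO FAPs and 0.15 for the interaction. It was 0.023 between the days in Osr1cKO FAPs with a filter at a mean TPM of 1, and for the interaction 0.011 with a median of ratios, 0.022 with no filter and 0.031 with limma-voom. The cause was not tested.

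Over all genes, the 985 calls at 3 dpi became 1834 in 1 fit of all 8 libraries, 371 to 2804 when a library was left out and 0 at an adjusted p under 0.1. The 11 calls at 7 dpi became 199 with limma-voom, 27 with the block, 79 with crossed numbers, 7 to 468 when a library was left out, 1844 at the unadjusted p, and 0 on unscaled TPM, with a filter at a mean TPM of 1, with no filter, at a pseudocount of 5 and in 1 fit of all 8 libraries. On unscaled TPM 83.0% of the genes passing at the unadjusted p at 7 dpi were higher in Osr1cKO, against 47.6%. The 8258 calls of the control days became 0 to 9952 and the 9215 of the Osr1cKO days 5555 to 9032 when a library was left out. For the interaction the 0 calls became 0 to 108 when a library was left out, 40 with no filter, 3 at a pseudocount of 0.1, 1 with a filter at a mean TPM of 1 and 1207 at the unadjusted p. Of 405 counts for the other lists, 362 stayed within 1.5 times.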
